A study of Arabidopsis thaliana with 9 samples.

Results

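The 3 TAS3 loci of Arabidopsis thaliana, TAS3A (AT3G17185), TAS3B (AT5G49615) and TAS3C (AT5G57735), were followed across 9 small RNA libraries. They were chosen by their locus identifiers, and all 3 were found among the 37336 genes listed. Small RNA reads of TAS3B were higher in the mutant rls6 than in both other genotypes, at 147 ± 4.52 normalized reads (SD, n = 3) against 101 ± 5.20 for prors1 (LUC) and 86.2 ± 8.94 for Col-0 (LUC). TAS3A, the source of nearly all TAS3 reads, and TAS3C passed the test in none of the 3 comparisons.

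The genotypes were Col-0 (LUC) and the mutants prors1 (LUC) and rls6, each grown on soil without treatment and sequenced as 3 libraries. Col-0 is the standard laboratory accession, and the study set out to compare small RNA in both mutants with Col-0 (LUC). Plants grew under 16 h of light and 8 h of dark; the protocols give an age of 25 days and the source label 26 days. RNA of 17 to 30 nt was cut from a gel loaded with 30 µg of total RNA. The labels do not say what LUC marks, whether rls6 also carries it or the prors1 allele, or what is altered in rls6. The source label calls prors1 (LUC) rbp-ko-1 and rls6 rbp-ko-2, so the genotype names rest on the titles and the genotype label, which could not be checked with small RNA reads. The labels name no separate plants or cultures behind the libraries of a genotype, so p-values measure the spread between these libraries, which may be technical.

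Trans-acting siRNAs are plant small RNAs made from non-coding transcripts that a microRNA first marks. For TAS3 the microRNA is miR390, carried by the Argonaute protein AGO7, which binds the transcript at a pair of sites and cuts at the 3′ site. The RNA-dependent RNA polymerase RDR6, helped by SGS3, then copies the fragment into double-stranded RNA, and the Dicer enzyme DCL4 cuts it in steps of 21 nt starting from the miR390 cut. Some of these siRNAs, the tasiARFs, guide the cutting of transcripts of the auxin response factors ARF2, ARF3 and ARF4, and in this way act on leaf polarity, the change from juvenile to adult leaves, and lateral roots.

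Sequences were read from the RefSeq genome TAIR10.1 at the annotated loci, which are all non-coding RNA genes on the plus strand. TAS3A lies at chr3:5861491-5862437 and is 947 nt long, TAS3B at chr5:20134200-20134786 with 484 nt of exon in a span of 587 nt, and TAS3C at chr5:23394005-23394500 with 496 nt. The mature miR390 had the same letters in both annotated genes, MIR390A at chr2:16061971-16061991 and MIR390B at chr5:23636961-23636981, shown with its seed (bases 2 to 8) in capitals.
miR390: aAGCTCAGgagggatagcgcc

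The stretch between the outer ends of the miR390 sites is shown for each locus because it holds the parts that define a TAS3 transcript. The outer capitals mark the miR390 sites and the inner capitals the tasiARF copies. The stretches lie at chr3:5862099-5862363, chr5:20134458-20134694 and chr5:23394221-23394442, all on the plus strand.
TAS3A: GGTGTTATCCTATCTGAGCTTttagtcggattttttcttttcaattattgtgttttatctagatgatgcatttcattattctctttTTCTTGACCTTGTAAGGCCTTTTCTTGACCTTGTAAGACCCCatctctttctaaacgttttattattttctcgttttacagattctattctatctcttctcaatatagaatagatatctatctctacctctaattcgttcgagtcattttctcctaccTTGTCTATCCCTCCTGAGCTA
TAS3B: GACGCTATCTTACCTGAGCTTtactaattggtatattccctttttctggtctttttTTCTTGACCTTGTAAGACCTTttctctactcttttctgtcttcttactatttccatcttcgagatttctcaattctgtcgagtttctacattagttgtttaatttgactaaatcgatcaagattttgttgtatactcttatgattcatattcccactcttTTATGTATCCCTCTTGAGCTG
TAS3C: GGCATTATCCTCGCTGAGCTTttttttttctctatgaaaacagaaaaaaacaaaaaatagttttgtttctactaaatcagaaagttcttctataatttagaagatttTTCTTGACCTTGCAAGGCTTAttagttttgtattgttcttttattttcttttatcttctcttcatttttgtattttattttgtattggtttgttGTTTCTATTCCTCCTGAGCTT

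These stretches were 265, 237 and 222 nt long in TAS3A, TAS3B and TAS3C. Aligned end to end they had between 52.4% (TAS3B and TAS3C) and 56.9% (TAS3A and TAS3B) identical letters. The miR390 sites were taken as the pair of windows with the fewest mismatches to the complement of miR390. The 5′ site had 5 mismatches in TAS3A, 4 in TAS3B and 5 in TAS3C, and the 3′ site had 5, 7 and 4. Pairs of G with U were counted as mismatches. They made up 4, 2 and 2 of those at the 5′ site and 0, 1 and 2 at the 3′ site. The next best window in a locus had 9 or 10 mismatches.

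**Figure D1:**
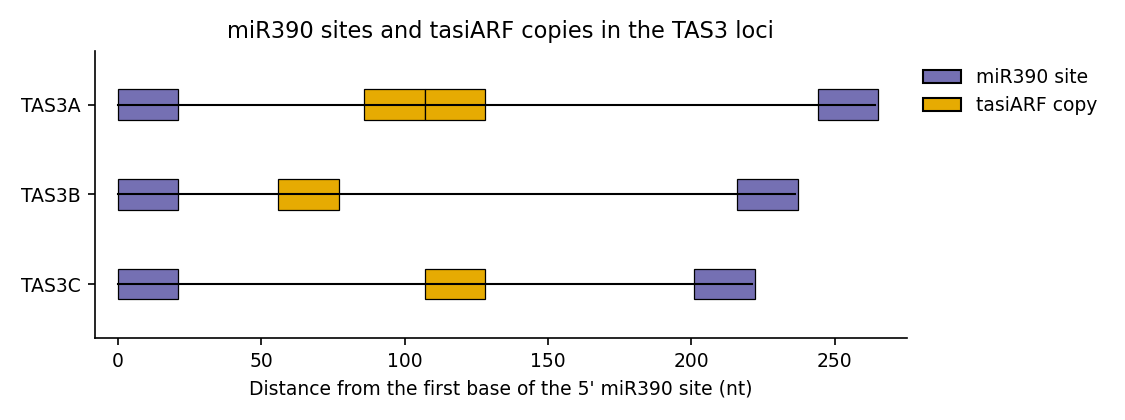
Positions of the miR390 sites and the tasiARF copies in TAS3A, TAS3B and TAS3C, in nt from the first base of the 5′ miR390 site. TAS3A holds 2 adjoining tasiARF copies, and TAS3B and TAS3C hold 1 each.

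The longest stretch shared by the 3 loci was the 15 letters tttttcttgaccttg, found on either strand in 3 of 38095 annotated genes, which are the TAS3 loci themselves. Its last 12 letters open each tasiARF copy and are shown in capitals below. They occurred on either strand in 34 annotated genes, or 0.0893%. A pair of windows with at most 7 mismatches to the miR390 complement within 300 nt occurred in 91 genes, or 0.239%. Together on the sense strand they occurred in the 3 TAS3 loci, from which both were taken.
TAS3A copy 1: TTCTTGACCTTGtaaggcctt
TAS3A copy 2: TTCTTGACCTTGtaagacccc
TAS3B copy: TTCTTGACCTTGtaagacctt
TAS3C copy: TTCTTGACCTTGcaaggctta

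Counted from the middle of the 3′ miR390 site, the TAS3A copies began 169 and 148 nt upstream, which is 8 and 7 whole steps of 21 nt with a remainder of 1 nt. The TAS3B copy began 171 nt upstream, 8 steps with a remainder of 3 nt. The TAS3C copy began 105 nt upstream, 5 steps with a remainder of 0 nt. The copies of TAS3A and TAS3C thus lay at or within 1 nt of the 21-nt steps, and the TAS3B copy lay farther off.

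The matching sites in the target genes lie in coding exons, a single site in ARF2 and a pair each in ARF3 and ARF4. They are shown for ARF3, whose sites carry both letter forms found, at chr2:14325942-14325962 and chr2:14325822-14325842 on the minus strand. The first form is also the ARF2 site (chr5:24913261-24913281, plus strand) and the second ARF4 site (chr5:24309508-24309528, minus strand), and the second form is the first ARF4 site (chr5:24309718-24309738, minus strand).
ARF3 site 1: agggtcttgcaaggtcaagaa
ARF3 site 2: aaggtcttgcaaggtcaagaa

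The TAS3B copy had 2 mismatches to the first form and 1 to the second. Copy 1 of TAS3A had 3 and 2, copy 2 had 2 and 3, and the TAS3C copy had 4 and 3. TAS3B thus had the fewest at the second form and tied with TAS3A copy 2 at the first. These counts describe letters, and activity at the sites was not measured.

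The libraries held 611238 to 702303 reads over all genes, and 13649 to 15793 genes had reads in each. A single gene, AT3G15920, took 13.0% to 22.3% of a library. Chi-square per degree of freedom between libraries of the same genotype was 1.49 to 7.13, above the value near 1 that sampling noise alone gives. The values are reads per gene after division by a size factor, called normalized reads here. They do not tell the strand, length or position of a read, so tasiARFs themselves were not separated from other small RNA of a locus. Of all 21-nt windows, 99.9% in TAS3A, 97.7% in TAS3B and 98.5% in TAS3C occurred at a single place in the genome, and 1 window was shared between TAS3A and TAS3B. At 17 nt, the shortest length taken from the gel, 88.8%, 88.3% and 76.3% were unique, so the shortest reads of TAS3C were the least certain.

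The 3 loci differed widely in level. Over the 9 libraries TAS3A had 77586 reads, 1.34% of all reads, and ranked 7 among the 37336 listed genes. TAS3B had 1058 reads and ranked 829, and TAS3C had 567 reads and ranked 1552. Per kb of exon, TAS3A had a mean level of 8670 normalized reads, TAS3B 230 and TAS3C 120. On this scale TAS3A was 37.7 times the level of TAS3B and 72.2 times that of TAS3C, and TAS3B was 1.92 times that of TAS3C. TAS1C, TAS2 and TAS1A, whose transcripts are marked by miR173, stood above TAS3A per kb by 2.92, 2.24 and 2.16 times. TAS1B, at 4289 normalized reads per kb, stood below TAS3A, and TAS4 stood at 0.114 of TAS3A.

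In TAS3B, the normalized reads were 76.1, 93.2 and 89.2 for Col-0 (LUC) replicates 1 to 3. For prors1 (LUC) they were 102, 95.4 and 106, and for rls6 147, 152 and 143. All rls6 libraries stood above all 6 others, and all prors1 (LUC) libraries stood above those of Col-0 (LUC), by a narrower margin. The recovered reads behind these values numbered 465 for rls6, 299 for prors1 (LUC) and 294 for Col-0 (LUC). Counting error was about 8.04%, 10.0% and 10.2% per library, against coefficients of variation of 3.08%, 5.14% and 10.4%. The SDs of rls6 and prors1 (LUC) were thus smaller than counting error. The gap between the closest prors1 (LUC) and Col-0 (LUC) libraries, 95.4 and 93.2, also lay within counting error.

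TAS3B rose in rls6 against Col-0 (LUC), with a log2 fold change of 0.77 ± 0.12 (SE; 95% interval 0.52 to 1.01), a fold of 1.70, and a limma adjusted p of 3.02e-05. Here limma was fitted to log2(normalized reads + 1) of 4766 genes that reached 10 normalized reads in 3 or more libraries, and p-values were adjusted by Benjamini-Hochberg over these genes at a threshold of 0.05. TAS3B also rose in rls6 against prors1 (LUC), by 0.54 ± 0.12 on the log2 scale (0.29 to 0.78; limma adjusted p = 0.00218), a fold of 1.45. The ratios of mean normalized reads were 1.71 and 1.46, with exact 95% intervals of 1.47 to 1.98 and 1.26 to 1.69. These intervals were taken from the recovered reads, scaled to normalized reads, and cover counting error only. In prors1 (LUC) against Col-0 (LUC) the log2 fold change was 0.23 ± 0.12 (-0.01 to 0.48; limma adjusted p = 0.231) and TAS3B was not called. In these whole-plant samples, a change in the number of cells of a type and a change in RNA per cell cannot be told apart.

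The background for these calls was broad. In rls6 against Col-0 (LUC), 17.6% of the 4766 genes tested were called, 12.7% higher and 4.95% lower, and in 18.2% every rls6 library stood above every Col-0 (LUC) library. In rls6 against prors1 (LUC), 16.8% were called, 11.7% higher and 5.16% lower, and again 18.2% had all rls6 libraries on top. Of all genes tested, 6.69% were called higher in rls6 than in both other genotypes, and in 10.3% all 3 rls6 libraries stood above all 6 others. In prors1 (LUC) against Col-0 (LUC), 14.4% were called, 7.74% higher and 6.63% lower, and in 14.3% every prors1 (LUC) library stood above every Col-0 (LUC) library.  The exact two-sided permutation test gave p = 0.1 for TAS3B in each comparison, the smallest p that 3 libraries against 3 allow.

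**Figure D2:**
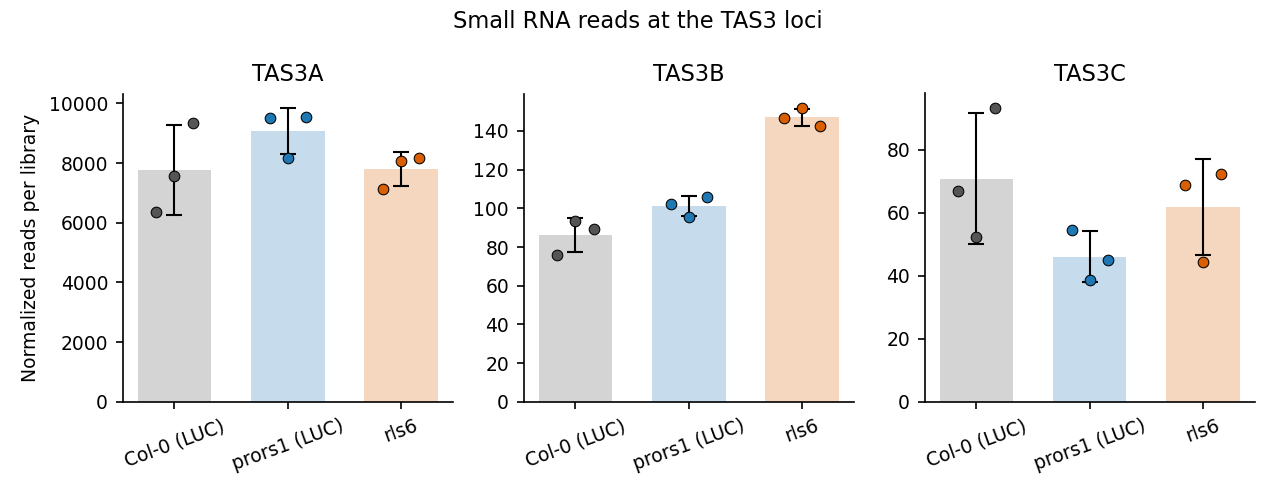
Normalized reads per library at TAS3A, TAS3B and TAS3C in the 3 genotypes, on axes that start at 0 and differ between panels. Points are libraries, bars are means and whiskers are SDs (n = 3). In TAS3B the rls6 libraries lie between 143 and 152 and all others at or below 106.

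In TAS3A, which gives most TAS3 siRNA reads, the normalized reads were 6370, 7573 and 9345 in Col-0 (LUC). For prors1 (LUC) they were 9494, 8185 and 9534, and for rls6 7130, 8080 and 8185. The 3 genotypes overlapped, and Col-0 (LUC) alone spanned nearly the whole range. In rising order the means were 7762 ± 1497 normalized reads for Col-0 (LUC), 7798 ± 581 for rls6 and 9071 ± 768 for prors1 (LUC) (SD, n = 3), and no neighbours in that order passed the test.

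For prors1 (LUC) against Col-0 (LUC), the log2 fold change of TAS3A was 0.24 ± 0.13 (95% interval -0.03 to 0.51; limma adjusted p = 0.270). It was 0.02 ± 0.13 in rls6 against Col-0 (LUC) (-0.25 to 0.29; limma adjusted p = 0.947) and -0.22 ± 0.13 for rls6 against prors1 (LUC) (-0.49 to 0.06; limma adjusted p = 0.292). The rls6 against Col-0 (LUC) value became -0.13 when libraries were scaled by total reads without AT3G15920 and -0.070 with upper-quartile scaling. Both scalings moved all genes alike, so TAS3A stayed at 0.04 relative to the median gene in each case. That value cannot tell which scaling is right. With no filter on low values, both comparisons with prors1 (LUC) passed the test at the same fold changes, with an SE of 0.0235. That SE understates the spread between libraries. Counting error was about 1.08% per Col-0 (LUC) library, against a coefficient of variation of 19.3% between those libraries.

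In TAS3C, the normalized reads were 66.9, 52.2 and 93.3 in Col-0 (LUC). For prors1 (LUC) they were 54.7, 38.5 and 45.1, and for rls6 68.7, 44.3 and 72.4. The prors1 (LUC) libraries were low but overlapped both other genotypes. In rising order the means were 46.1 ± 8.13 normalized reads for prors1 (LUC), 61.8 ± 15.3 for rls6 and 70.8 ± 20.8 for Col-0 (LUC), from 136, 195 and 236 recovered reads, and no neighbours in that order passed the test. With this few reads, counting error alone was 10.5% to 15.8% per library.

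Between prors1 (LUC) and Col-0 (LUC) the log2 fold change of TAS3C was -0.58 ± 0.21, with a 95% interval of -1.01 to -0.16 before adjustment over genes and a limma adjusted p of 0.0606, and it was not called. It was called in 5 of 21 other settings, among them leaving out Col-0 (LUC) replicate 2 (-0.78, limma adjusted p = 0.0133), prors1 (LUC) replicate 1 (-0.71, limma adjusted p = 0.0450) or rls6 replicate 2 (-0.58, limma adjusted p = 0.0431). The log2 fold change was -0.19 ± 0.21 in rls6 against Col-0 (LUC) (-0.61 to 0.24; limma adjusted p = 0.616), and 0.40 ± 0.21 for rls6 against prors1 (LUC) (-0.03 to 0.82; limma adjusted p = 0.208).

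**Figure D3:**
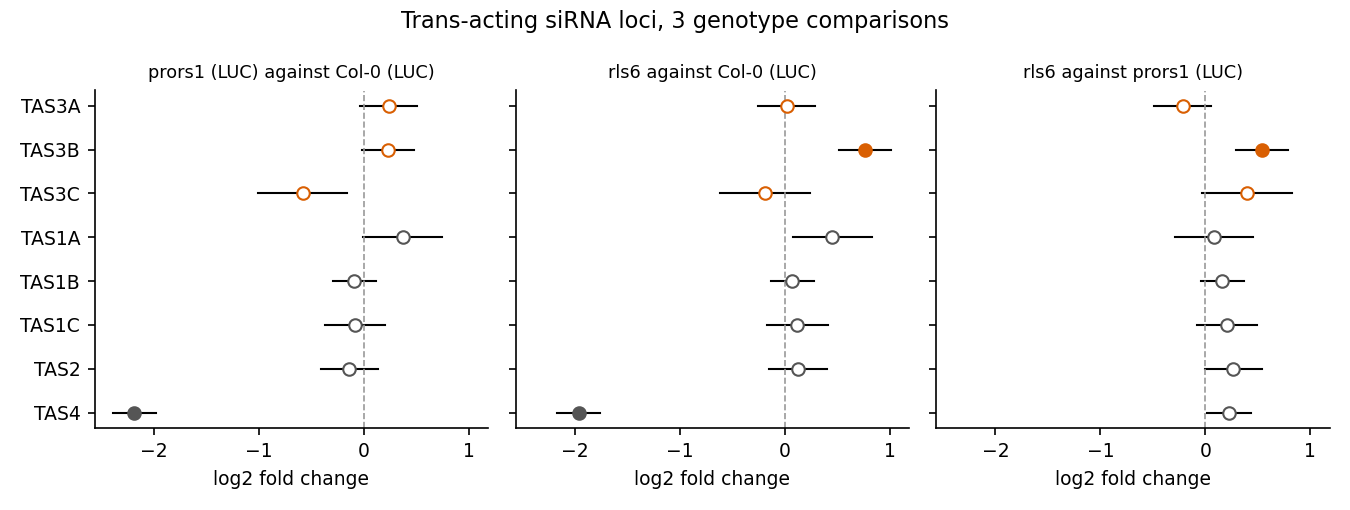
Log2 fold changes (limma) with 95% intervals of the 3 TAS3 loci (orange) and the 5 other trans-acting siRNA loci (grey) in the 3 genotype comparisons. Filled points passed an adjusted p of 0.05 over 4766 genes. Only TAS3B, in both rls6 comparisons, and TAS4, in both mutants against Col-0 (LUC), are filled.

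The authors' deposited table holds a comparison whose header names no groups and whose log2 fold changes followed prors1 (LUC) over Col-0 (LUC), with a Pearson r of 0.996 over 3219 genes (genes are no replicates). The authors' deposited table gives TAS3A 0.22 ± 0.14 (adjusted p = 0.545), TAS3B 0.22 ± 0.16 (adjusted p = 0.641) and TAS3C -0.56 ± 0.22 (adjusted p = 0.137) as log2 fold changes with standard errors. None of the 3 loci passed 0.05 in the authors' deposited table or in the limma fit of that comparison.

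Summed over the 3 loci, the normalized reads were 8007 ± 576 for rls6, 7919 ± 1517 for Col-0 (LUC) and 9218 ± 779 for prors1 (LUC) (SD, n = 3). The exact permutation p was 1 for rls6 against Col-0 (LUC) and 0.2 for each of the other comparisons. The share of TAS3A among TAS3 reads was 97.4% ± 0.286 for rls6, 98.0% ± 0.172 for Col-0 (LUC) and 98.4% ± 0.0358 for prors1 (LUC). These shares did not overlap between genotypes, with an exact permutation p of 0.1 in each comparison and 0.233 after Benjamini-Hochberg adjustment over the 21 comparisons of this family.

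A ratio within a library does not depend on how libraries were scaled. Per 1000 TAS3A reads, TAS3B had 20.6, 18.8 and 17.4 reads in the rls6 libraries. It had 10.8, 11.7 and 11.1 in those of prors1 (LUC) and 11.9, 12.3 and 9.54 in those of Col-0 (LUC). The rls6 libraries stood above all others, at 1.68 times the mean of Col-0 (LUC) and 1.70 times that of prors1 (LUC), each with exact permutation p = 0.1 (0.233 adjusted). The means of prors1 (LUC) and Col-0 (LUC) were 11.2 ± 0.458 and 11.3 ± 1.50, with exact permutation p = 0.9 between them. TAS3C had 9.13 ± 1.95 reads per 1000 TAS3A reads in Col-0 (LUC), 7.99 ± 2.20 in rls6 and 5.07 ± 0.602 in prors1 (LUC). Here all prors1 (LUC) libraries stood below all Col-0 (LUC) libraries (exact permutation p = 0.1, 0.233 adjusted), and the other pairs of genotypes overlapped. In normalized reads, TAS3C overlapped in that pair too. By that measure, 13.2% of the 4766 genes tested had every prors1 (LUC) library below every Col-0 (LUC) library. With TAS3C as denominator, TAS3B had 2.51 ± 0.797 reads per TAS3C read for rls6, 2.23 ± 0.320 for prors1 (LUC) and 1.29 ± 0.436 for Col-0 (LUC). All libraries of both mutants stood above those of Col-0 (LUC), each with exact permutation p = 0.1 (0.233 adjusted). The mutants overlapped each other (exact permutation p = 0.8), so this ratio did not set rls6 apart from prors1 (LUC). These ratios were added after the values had been seen.

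**Figure D4:**
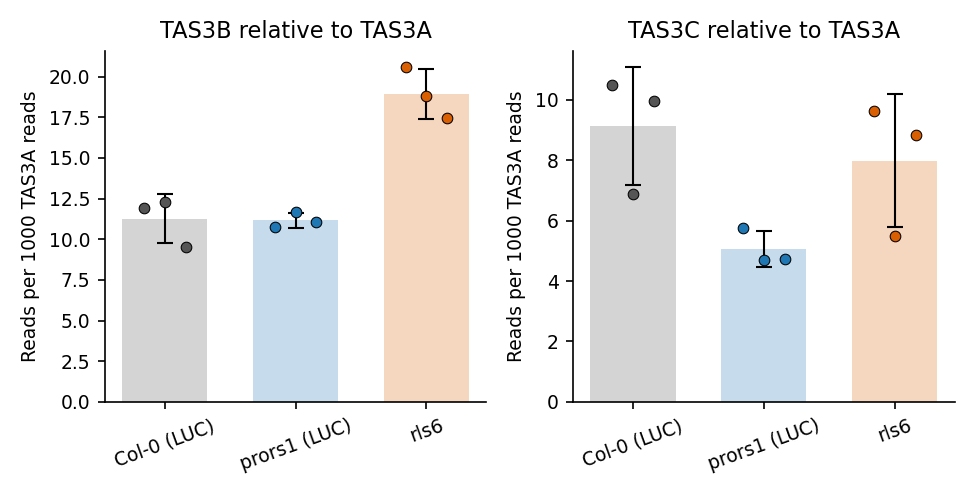
Reads of TAS3B and of TAS3C per 1000 TAS3A reads in each library, with means (bars) and SDs (whiskers, n = 3). The rls6 libraries lie between 17.4 and 20.6 for TAS3B, above all 6 others, while for TAS3C the rls6 libraries overlap both other genotypes.

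Set beside the other trans-acting siRNA loci, TAS3 took 10.8% ± 1.76 of the reads of all 8 loci in Col-0 (LUC), 9.93% ± 0.481 in rls6 and 12.7% ± 2.14 in prors1 (LUC). These shares overlapped in every pair, with exact permutation p from 0.2 to 0.7. TAS4, which is marked by miR828 and targets MYB genes, fell in both mutants against Col-0 (LUC), by 2.18 and 1.96 on the log2 scale (limma adjusted p = 2.63e-13 and 9.18e-13). TAS1A, TAS1B, TAS1C and TAS2 passed the test in no comparison. Full separation was still not particular to TAS3B. Every rls6 library had at least 21537 normalized reads at TAS2, above the highest Col-0 (LUC) library (20280) and prors1 (LUC) library (20298). The TAS2 log2 fold changes of rls6 were 0.13 and 0.27 against these genotypes (exact permutation p = 0.1 each). At TAS1B and TAS1C, all rls6 libraries stood above all prors1 (LUC) libraries but overlapped Col-0 (LUC). Over all genes tested, all 3 rls6 libraries stood above all 6 others in 10.3% and above all prors1 (LUC) libraries in 18.2%. Of the 8 loci, TAS3B alone was called in rls6 against prors1 (LUC), where 16.8% of all genes tested were called. TAS4 was called in that comparison in 2 of 21 other settings.

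The genes that make TAS3 siRNAs were covered thinly, as small RNA libraries do not measure messenger RNA. Of 13 biogenesis genes, 10 had 1 to 6 reads in all 9 libraries together and were not tested, among them AGO7 with 2 reads, RDR6 with 5 and SGS3 with 4. DCL4, which cuts the siRNAs, had 22.2 ± 4.05 normalized reads in Col-0 (LUC), 22.7 ± 2.59 in rls6 and 42.5 ± 17.6 in prors1 (LUC). It was called higher in prors1 (LUC) than in Col-0 (LUC) (log2 fold change 0.83, limma adjusted p = 0.0329; called in 12 of 20 other settings) and lower in rls6 than in prors1 (LUC) (-0.79, limma adjusted p = 0.0363; 12 of 20). The first call was lost without replicate 1 or 3 of Col-0 (LUC) (limma adjusted p = 0.0860 and 0.128) or replicate 1 or 2 of prors1 (LUC) (0.101 and 0.217). The second was lost without replicate 1 or 2 of prors1 (LUC) (limma adjusted p = 0.111 and 0.237) or any replicate 1 to 3 of rls6 (0.0559, 0.114 and 0.103). AGO1, the Argonaute that carries most microRNAs and tasiARFs, was called lower in prors1 (LUC) than in Col-0 (LUC) (-0.57, limma adjusted p = 0.0375; called in 12 of 20 other settings) and higher in rls6 than in prors1 (LUC) (0.54, limma adjusted p = 0.0446; 7 of 20). The first AGO1 call was lost without replicate 2 or 3 of Col-0 (LUC) (limma adjusted p = 0.0961 and 0.108) or replicate 1 or 3 of prors1 (LUC) (0.150 and 0.109). The second was lost without Col-0 (LUC) replicate 3 (limma adjusted p = 0.05004), prors1 (LUC) replicate 1 or 3 (0.173 and 0.123) or any replicate 1 to 3 of rls6 (0.111, 0.114 and 0.0954). DCL1 was called in no comparison. None of these 3 genes was called in rls6 against Col-0 (LUC), where 17.6% of all genes tested were called. A link between reads at these genes and TAS3B was not tested.

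Small RNA reads at the target genes were few and passed no test. ARF4 had 66.8 ± 9.30 normalized reads in Col-0 (LUC), 57.6 ± 1.70 in rls6 and 63.4 ± 2.82 in prors1 (LUC). Its log2 fold change in rls6 against Col-0 (LUC) was -0.20 ± 0.14 (95% interval -0.50 to 0.10; limma adjusted p = 0.390). ARF2 and ARF3 had 128 and 69 reads in all libraries together. The median log2 fold change of the 3 targets was that of ARF4 in both mutants against Col-0 (LUC). It was -0.20 in rls6 and -0.07 in prors1 (LUC), beside medians of -0.02 and 0.01 for all genes tested. In rls6 against prors1 (LUC) the median was that of ARF3, at -0.14 (95% interval -1.35 to 1.07), beside -0.02. Of the 12 other ARF genes, 1 was tested (ARF10) and it was not called. The table lists 0 of the 2 MIR390 genes, so miR390 was not analysed here.

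No annotated gene overlaps a TAS3 locus. Neighbours were sought among the listed genes only. The nearest listed neighbours of TAS3B, AT5G49610 at 1455 nt and MYB78 at 2427 nt, had 1 and 0 reads in all libraries. The neighbours of TAS3C, AT5G57720 at 2342 nt and XBAT32 at 84 nt on the opposite strand, had 1 and 5 reads. Beside TAS3A, AT3G17180 had 5 reads. AT3G17190, which starts 4954 nt downstream of TAS3A, had 149 ± 13.0 normalized reads in Col-0 (LUC), 293 ± 3.31 in rls6 and 267 ± 36.3 in prors1 (LUC). It rose in both mutants against Col-0 (LUC), by 0.83 and 0.97 on the log2 scale (limma adjusted p = 8.62e-06 and 3.29e-07), where TAS3A was not called.

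Pearson r of log2(normalized reads + 1) was 0.06 for TAS3A with TAS3B, -0.10 for TAS3A with TAS3C and -0.08 for TAS3B with TAS3C, as descriptions of libraries that share genotype and depth. Among 4765 other genes, those most like TAS3B were AT5G41612 (r 0.979), AT1G35663 (r 0.978) and AT1G61320 (r 0.974). Each was highest in rls6, and AT1G61320 had means of 63.0 normalized reads in rls6, 2.39 for Col-0 (LUC) and 10.8 for prors1 (LUC). These genes were picked for likeness to TAS3B, which is itself highest in rls6. Their high level in rls6 thus follows from the choice and is no separate result. The most like TAS3A were AT5G39080 (r 0.922), AT3G15920 (r 0.891) and AT2G09870 (r 0.886). AT3G15920 is the gene named above with a large share of each library. The most like TAS3C were AT3G42460 (r 0.969), AT3G33124 (r 0.929) and AT5G25000 (r 0.900).

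The calls of TAS3B held under every setting tried. Over 21 alternatives in scaling, filter, pseudocount, test and left-out library, its log2 fold change lay between 0.62 and 0.83 in rls6 against Col-0 (LUC), with adjusted p from 9.97e-06 to 0.00267. For rls6 against prors1 (LUC) it lay between 0.47 and 0.57, with adjusted p from 0.00103 to 0.0220. These adjusted p-values come from limma, edgeR or DESeq2, as the setting names.

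**Figure D5:**
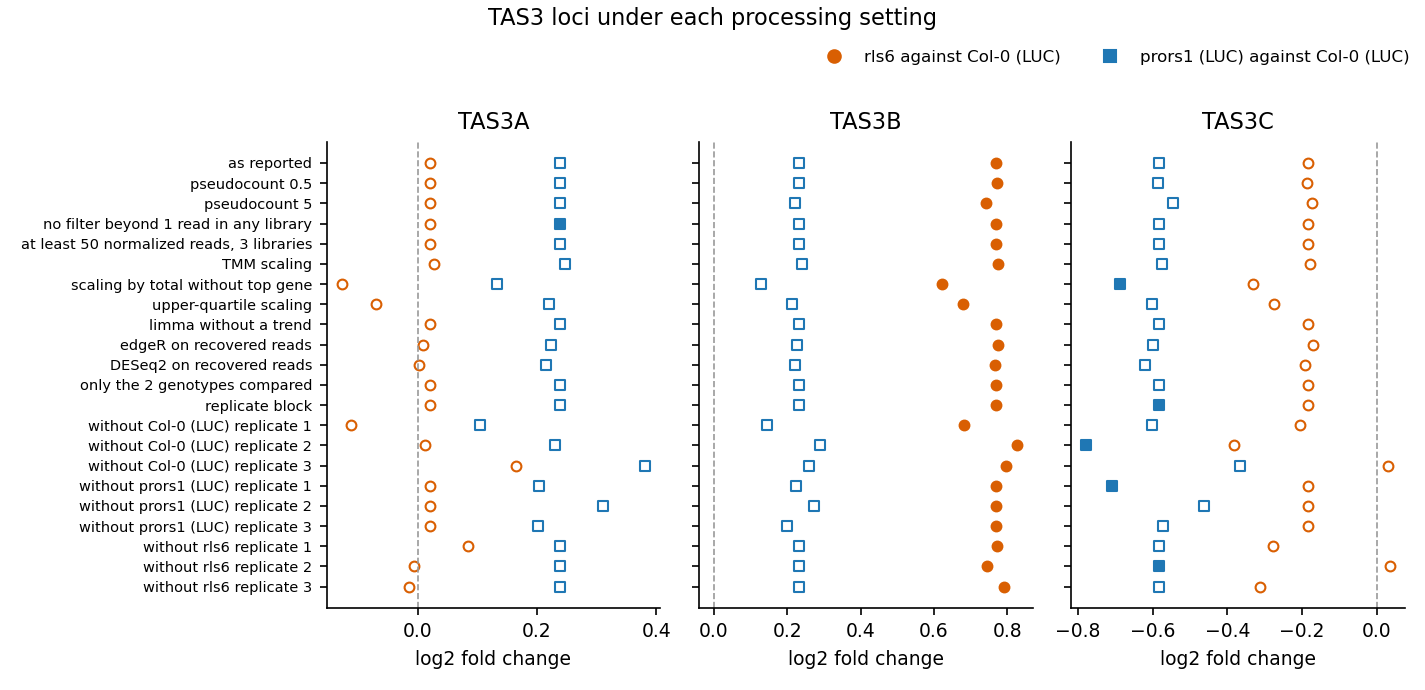
Log2 fold changes of TAS3A, TAS3B and TAS3C in rls6 (orange circles) and prors1 (LUC) (blue squares) against Col-0 (LUC), as reported and under 21 other settings, listed by row. Filled symbols passed an adjusted p of 0.05. TAS3B in rls6 is filled in every row, between 0.62 and 0.83.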

How the data were processed

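The submitters' processing notes name the TAIR10 build and the tools Trimmomatic, FastQC, Bowtie2 and featureCounts. Not given in the sources used here are versions, settings, and how strand and reads with several places were handled. As deposited, the signal of a gene is its reads over the library's size factor (0.950 to 1.24). Every value was a whole multiple of its column's smallest value within 1e-06, so whole reads were recovered for 100% of values. The same deposited table holds the authors' log2 fold changes, standard errors and Wald score, and p-values. They were used only where named.

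Library values were tested with limma-trend (limma 3.58.1, R 4.3.3) on log2(normalized reads + 1). The model had genotype as its single term, all 9 libraries, and the 4766 genes that reached 10 normalized reads in 3 or more libraries. Fold changes on this scale understate changes of genes with few reads. edgeR 4.0.16 and DESeq2 1.42.0 on recovered reads, other scalings, filters and pseudocounts, a replicate block and leaving out each library were alternatives. The fits were tested on simulated data. For sums and ratios, exact permutation tests (two-sided, scipy 1.17.1) were used; their smallest p is 0.1. Names, coordinates and sequences came from RefSeq TAIR10.1; names were matched by locus identifier. The members, lists and rules were chosen with earlier results of these data known. The rule named the 3 TAS3 loci, the 5 other TAS loci, fixed pathway lists, nearest listed neighbours, and the 3 genes most like each locus.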

Additional observations from a re-analysis of the deposited data

How the results depend on the processing

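TAS3B kept its direction and its side of the threshold in all 3 comparisons under all 21 alternatives. For TAS3A with no filter on low values, limma gave -0.22 in rls6 against prors1 (LUC) (adjusted p = 6.58e-18) and 0.24 between prors1 (LUC) and Col-0 (LUC) (adjusted p = 1.23e-21), each with a standard error of 0.0235. TAS3A in rls6 against Col-0 (LUC) changed sign with total-read scaling (-0.13), with upper-quartile scaling (-0.070) and over left-out libraries (-0.11 to 0.16). TAS3C in prors1 (LUC) against Col-0 (LUC) passed the limma test with total-read scaling (-0.69, adjusted p = 0.0206), and left-out libraries gave -0.78 to -0.37. Its rls6 against Col-0 (LUC) value ranged from -0.38 to 0.034. The log2 ratio of summed TAS3 reads in rls6 against Col-0 (LUC) changed sign with total-read scaling (-0.13), with the other TAS loci as denominator (-0.14) and over left-out libraries (-0.11 to 0.17). The log2 ratio of TAS3B to TAS3A in prors1 (LUC) against Col-0 (LUC), added after seeing the data, ranged from -0.12 to 0.055. Total-read scaling moved the median of all genes in rls6 against Col-0 (LUC) from -0.02 to -0.17 and upper-quartile scaling to -0.11. Relative to that median, as reported and under both scalings, TAS3A stood at 0.04 and TAS3B at 0.79, and the summed reads at 0.04 as reported and with total-read scaling, so the sign changes under these scalings follow the shift of all genes. TAS3C in prors1 (LUC) against Col-0 (LUC) likewise stood at -0.59 as reported and with total-read scaling. A shift shared by all genes leaves such relative values unchanged, so they cannot tell which scaling is right. The cause of the other changes was not tested.

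The deviations of same-numbered samples correlated weakly, at 0.01, 0.15 and 0.09 for replicates 1 to 3 between prors1 (LUC) and Col-0 (LUC), 0.08, 0.13 and 0.05 between rls6 and Col-0 (LUC), and -0.02, 0.06 and 0.03 between rls6 and prors1 (LUC). As some were under 0.1, the numbers were not taken as pairs. In these 3 comparisons 4, 6 and 3 of 6 libraries correlated best with their own number, a hint from the data, not the design. With the replicate block, TAS3C in prors1 (LUC) against Col-0 (LUC) had -0.58 and passed the limma test (adjusted p = 0.00988), and no other TAS3 call changed. Counts of called genes rose in each direction of each comparison, by less than 1.5 times.

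Some settings moved counts of called genes by over 1.5 times. In prors1 (LUC) against Col-0 (LUC), 369 genes were higher and 316 lower, against 205 and 158 with DESeq2 and 233 and 196 with limma without a trend; with at least 50 normalized reads 189 were lower, and without Col-0 (LUC) replicate 3 188. In rls6 against Col-0 (LUC), 605 were higher and 236 lower, with 585 lower under total-read and 434 under upper-quartile scaling, 104 with DESeq2, 122 without replicate 3 and 147 without replicate 1 of Col-0 (LUC), and 149 without rls6 replicate 2. In rls6 against prors1 (LUC), 556 were higher and 246 lower, with 401 lower under upper-quartile scaling, 92 with DESeq2, 146 without a trend, 152 with no filter and 160 without rls6 replicate 3, and 364 higher with at least 50 normalized reads. Depth limits TAS3C most.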
